A study of Mus musculus with 6 samples.

Results

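The heat shock chaperones described here were 10 genes, taken by symbol from the 31053 genes listed for each tissue: Hspa1a, Hspa1b, Hspa8, Hspa5, Hsph1, Dnajb1, Dnaja1, Hsp90aa1, Hspb1 and Hspd1. All 10 symbols were found once in the kidney and once in the tumor gene lists. Their transcripts were counted as UMIs (unique molecular identifiers, 1 per captured RNA molecule) in single cells of mouse kidney and mouse mammary tumor, which had been taken apart in 3 ways. The study asked whether a microfluidic device platform frees more cells of every type than a standard digestion does. Kidneys came from male C57BL/6 mice of 12 weeks. Tumors came from female MMTV-PyMT mice of 10 weeks, in which the MMTV promoter drives the polyoma middle T oncogene in the mammary epithelium. All samples were minced and digested with type I collagenase at 0.25%, and live cells that excluded SytoxBlue were sorted. In the 60 min control the pieces were shaken in a tube and then pipetted and vortexed. In the 15 min interval, collagenase was recirculated through the digestion device and the suspension was collected after 15 min and passed once through the dissociation and filter device. The 60 min interval held the cells that came out of the remaining tissue when digestion went on to 60 min. There was 1 library for each tissue and condition, so no difference below has a replicate check and no test was possible. Intervals given are exact 95% intervals for counting error only. Digestion time, the way of handling and which cells had already left the tissue differ together between these libraries and cannot be told apart.

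Chaperones bind unfolded protein and help it fold or reach its place in the cell. When proteins unfold under heat, oxidation or mechanical and chemical injury, the transcription factor HSF1 binds heat shock elements and raises the inducible members within minutes. The HSP70 proteins Hspa1a and Hspa1b are the inducible pair, Hspa8 is the HSP70 that nearly every cell makes without stress, and Hspa5 is the HSP70 of the endoplasmic reticulum. Dnajb1 and Dnaja1 are HSP40 co-chaperones that load clients onto HSP70, Hsph1 exchanges its nucleotide, Hsp90aa1 is the inducible cytosolic HSP90, Hspb1 is a small heat shock protein that holds unfolded clients, and Hspd1 is the HSP60 of mitochondria. The same genes are known to respond to enzymatic digestion of tissue at body temperature, which is why they are often read as a mark of dissociation.

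The genes lie on 8 chromosomes of the GRCm38 mouse genome (the mm10 build). Hspa1a (chr17:34969190-34972156, minus strand) and Hspa1b (chr17:34956436-34959238, minus strand) are neighbours. Hspb1 lies at chr5:135887919-135889563 (plus strand), on the chromosome that also holds Hsph1, and Hspa5 at chr2:34771970-34777547 (plus strand). RefSeq start-site windows were found for 8 of the 10 members. The 250 bases before the start were searched on both strands for a heat shock element of 2 units (GAANNTTC or TTCNNGAA), for one of 3 units (the same with a further unit after 2 free bases, which therefore contains the shorter form) and for the endoplasmic reticulum stress response element, which is CCAAT, 9 free bases and CCACG. Of these 8 members 4 have 1 start in the table and the others have 2 or 3, so 13 windows were searched. The short heat shock element was present in 7 of the 13 windows, at 6 of the 8 members, and in 12.9% of the 32536 windows of the same length. The 3-unit form was present at Hspd1 alone among the members and in 0.470% of all windows. The endoplasmic reticulum element was present at Hspa5 alone among the members and in 0.114% of all windows. The windows of the 4 members with 1 start in the table are shown, with Hspa5 cut to a stretch around its match. Dnajb1, with 2 windows, had no match of these kinds. Capitals mark the matches.
Hspa1a (chr17:34972157-34972406, minus strand): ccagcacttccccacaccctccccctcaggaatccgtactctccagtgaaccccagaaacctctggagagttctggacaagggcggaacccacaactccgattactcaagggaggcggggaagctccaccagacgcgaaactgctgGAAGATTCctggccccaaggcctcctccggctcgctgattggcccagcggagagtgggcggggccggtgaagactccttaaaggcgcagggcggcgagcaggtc
Hspa1b (chr17:34959239-34959488, minus strand): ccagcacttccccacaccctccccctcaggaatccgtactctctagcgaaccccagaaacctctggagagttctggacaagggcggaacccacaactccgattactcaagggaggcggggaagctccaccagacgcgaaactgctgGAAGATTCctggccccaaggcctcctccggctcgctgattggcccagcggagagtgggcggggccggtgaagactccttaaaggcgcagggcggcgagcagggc
Hspb1 (chr5:135887669-135887918, plus strand): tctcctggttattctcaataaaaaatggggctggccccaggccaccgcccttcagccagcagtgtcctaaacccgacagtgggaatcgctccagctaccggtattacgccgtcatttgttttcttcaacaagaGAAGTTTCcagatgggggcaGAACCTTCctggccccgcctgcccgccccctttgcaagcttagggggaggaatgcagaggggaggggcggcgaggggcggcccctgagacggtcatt
Hspa5, a stretch of 30 bases (chr2:34772020-34772049, plus strand): cttcaCCAATCGGAGGCCTCCACGacgggg

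The 2 inducible HSP70 windows were the same at 247 of 250 bases and differed by C44T, T47C and T249G, where position 1 is the 5′ end of the window, the first base is that of Hspa1a and the second that of Hspa1b. Both carried the match 104 bases before the start. Hspb1 carried 2 matches, 117 and 97 bases before its start, and Hspa5 carried its element 65 bases before the RefSeq start. That RefSeq start lies after the GENCODE start of Hspa5, so the stretch printed is inside the gene span given above and its window overlaps an annotated exon. A match is a run of letters and shows no binding. The coding parts of Hspa1a and Hspa1b are nearly identical, and 58.8% of the 50-base windows of the Hspa1a transcript also lie in Hspa1b. In the last 500 bases, where the 3′ libraries are read, none of the 451 windows was shared.

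Cells were put into classes by marker genes that did not include the members, and a class was compared where both libraries held at least 50 of its cells. The filters kept 5886 to 9936 cells per kidney library and 5736 to 6024 per tumor library, of which 85.7 to 97.3% entered a class. Median depth was 4583 to 6612 UMIs per kept kidney cell and 8211 to 9476 per tumor cell. The median mitochondrial share was 20.4% in the 15 min kidney library, against 7.38% in its control and 8.59% in the 60 min interval, while the tumor libraries had 6.55 to 7.54%. Between 122 and 280 cell barcodes of each kidney library, 1.48 to 2.04%, also occurred in another kidney library, and 36 to 41 of each tumor library, 0.440 to 0.503%. Leaving those cells out turned no difference past 2-fold round and moved no count of gene and class pairs past 2-fold by more than 1 in either tissue. Levels are given as UMIs per 1000000 UMIs of the class (CPM), and the kidney and tumor tables were normalised separately.

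Hspa1a, the leading inducible HSP70, was lowest in the 15 min interval in 6 of 6 kidney classes that all libraries held. In kidney endothelial cells it stood at 4552 in the 60 min control, 1015 in the 15 min interval and 4748 in the 60 min interval. The 15 min level was 4.48-fold lower than the control (ratio 0.211 to 0.236), and the 60 min level differed from the control by 0.06 on the log2 scale. The lymphocytes differed most. In B lymphocytes Hspa1a stood at 2059.9 in the 60 min control, 26.5 in the 15 min interval and 1773 in the 60 min interval, a 15 min level 77.7-fold below the control (ratio 0.00795 to 0.0197). That level rested on 21 UMIs, held by 2.80% of 214 cells, so the fold is not exact. In T lymphocytes the levels were 1896, 52.3 and 1058 in the same order, from 1709, 31 and 2396 UMIs. Macrophages kept the most in the short digestion, with levels of 4213, 1862 and 6175. Their 15 min level was 2.26-fold below the control.

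Proximal tubule cells, the absorptive epithelium that makes up most of the kidney suspension, held little Hspa1a under every condition. Their levels were 50.4 in the 60 min control, 5.68 in the 15 min interval and 267 in the 60 min interval, so the 60 min interval was 5.30-fold above the control (ratio 4.95 to 5.68) and 47.1-fold above the 15 min interval. This was the one kidney class compared in which Hspa1a in the 60 min interval exceeded the control by more than 2-fold. In the same cells the summed level of the 6 endothelial markers was 4.58, 3.63 and 21.3 CPM and that of the 6 macrophage markers 15.6, 6.50 and 30.2 CPM, with all 12 markers detected in each library. The part of RNA from those cells in the result was not tested. Loop of Henle cells had 144, 22.5 and 157 CPM of Hspa1a, from 51, 7 and 202 UMIs, and collecting duct principal cells 75.3 in the control and 82.7 in the 60 min interval.

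**Figure D1:**
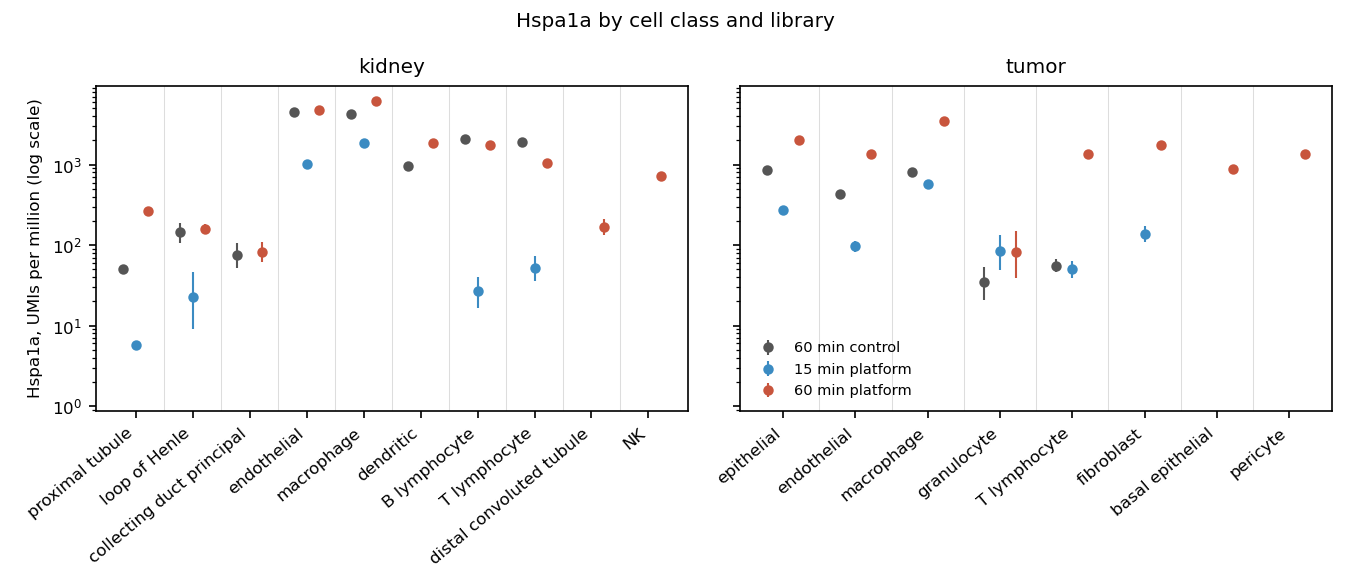
Hspa1a level in CPM (vertical log axis) for each cell class in kidney (left) and tumor (right), 1 point per library with its exact 95% counting interval. In kidney the 15 min points (blue) lie below both others in each of the 6 classes with all 3, and in tumor the 60 min interval (red) lies above the control (grey) in every class with both.

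Hspa1b, its near copy, was also lowest in the 15 min interval in these classes, at lower counts. Its kidney endothelial levels were 1377 in the 60 min control, 247 in the 15 min interval and 1828 in the 60 min interval, and its macrophage levels were 1246, 384 and 2182. In B lymphocytes Hspa1b stood at 659, 21.5 and 713, the middle value from 17 UMIs. In proximal tubule cells it stood at 18.1, 2.26 and 151, so the 60 min interval was 8.32-fold above the control.

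In the tumor the 60 min interval held the most Hspa1a in epithelial cells, endothelial cells, macrophages and T lymphocytes. Epithelial cells, in which the MMTV promoter drives the oncogene, had 847 in the 60 min control, 275 in the 15 min interval and 2001 in the 60 min interval. The 60 min interval was 2.36-fold above the control and the 15 min interval 3.07-fold below it. Macrophages had 817, 583 and 3443, 4.22-fold above the control in the 60 min interval, and endothelial cells had 436, 96.5 and 1346. Fibroblasts were too few in the control and had 137 in the 15 min and 1752 in the 60 min interval. Basal epithelial cells and pericytes reached the cell minimum in the 60 min interval alone, with 879 and 1347.

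Tumor T lymphocytes had the largest Hspa1a difference between the 60 min libraries. They stood at 55.5 in the 60 min control, 49.9 in the 15 min interval and 1349.8 in the 60 min interval, from 115, 66 and 2275 UMIs. The 60 min interval was 24.3-fold above the control (ratio 20.2 to 29.6), whereas the 15 min interval and the control had overlapping counting intervals (38.6 to 63.5 and 45.8 to 66.6 CPM). Median depth of these cells was 8079, 6409 and 4712 UMIs. Summed macrophage markers in them were 23.6, 24.2 and 47.5 CPM, and summed epithelial markers 241, 253 and 159 CPM. Their part in the result was not tested. Granulocytes held the least Hspa1a of the tumor classes in the control, with 34.4, 83.8 and 82.2 CPM from 19, 18 and 10 UMIs. Their 15 min level was 2.43-fold above the control (ratio 1.20 to 4.90), but became -0.93 on the log2 scale after thinning to 1000 UMIs. Hspa1b in granulocytes stood at 18.1, 112 and 16.4 CPM from 10, 24 and 2 UMIs. Both genes had too few UMIs there for the count filter given below.

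Tumor Hspa1b, like Hspa1a, was highest in the 60 min interval in epithelial cells, macrophages and T lymphocytes. Epithelial cells had 461, 165 and 932 CPM of Hspa1b in the control, the 15 min and the 60 min interval, macrophages 317, 115 and 1386 and T lymphocytes 42.5, 17.4 and 719.7. In macrophages the 15 min interval was 2.75-fold below the control for Hspa1b and 1.40-fold below for Hspa1a. In T lymphocytes it was 2.44-fold below for Hspa1b (ratio 0.247 to 0.654), from 23 and 88 UMIs, and 1.11-fold below for Hspa1a (ratio 0.654 to 1.23).

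The same differences were seen as the share of cells with a Hspa1a UMI after every cell had been thinned to 1000 UMIs, which takes depth out of the comparison. Among kidney endothelial cells 60.3% (56.0 to 64.4) of control, 32.6% (27.8 to 37.7) of 15 min and 69.1% (67.2 to 71.0) of 60 min interval cells had at least 1. Unthinned, the shares were 70.2%, 50.3% and 80.2%. B lymphocytes went from 30.6% (25.1 to 36.5) in the control to 0.948% (0.115 to 3.38) in the 15 min interval. For comparison, the class with the lowest share was the proximal tubule in the control, with 2.97%, and in the 15 min interval, with 0.490%. These cells had median depths of 5599 and 7200 UMIs, against 3545 and 3568.5 in B lymphocytes. The 15 min share of B lymphocytes overlapped that of the proximal tubule. After thinning, 2 of 211 such B lymphocytes had a UMI, with a mean of 0.0332 UMIs over the 211. Unthinned, 2.80% of the 214 cells held the 21 UMIs. Whether these UMIs were background was not tested. No class is known to lack Hspa1a, so free RNA was not measured directly. Thinning left out 13, 4 and 42 endothelial cells and 5 and 3 B lymphocytes with fewer UMIs.

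Kidney macrophages of the control and the 15 min interval overlapped in share and differed in amount. After thinning, 60.3% (56.8 to 63.8) of control and 59.0% (49.5 to 68.0) of 15 min macrophages had a Hspa1a UMI, intervals that overlap, and 82.7% (80.6 to 84.7) of 60 min macrophages did. Of the same cells 31.2% of the control and 8.55% of the 15 min interval had 5 or more, and in the 60 min interval 53.9%. In the tumor the shares of macrophages with a UMI were 22.7% in the control, 27.8% in the 15 min and 60.3% in the 60 min interval. The first 2 were thus in the reverse order of the CPM values, so no order was read from them. Tumor T lymphocytes with a UMI were 2.04% (0.666 to 4.70), 2.66% (0.869 to 6.10) and 26.3% (21.3 to 31.8), so most T lymphocytes of the 60 min interval had none at this depth.

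**Figure D2:**
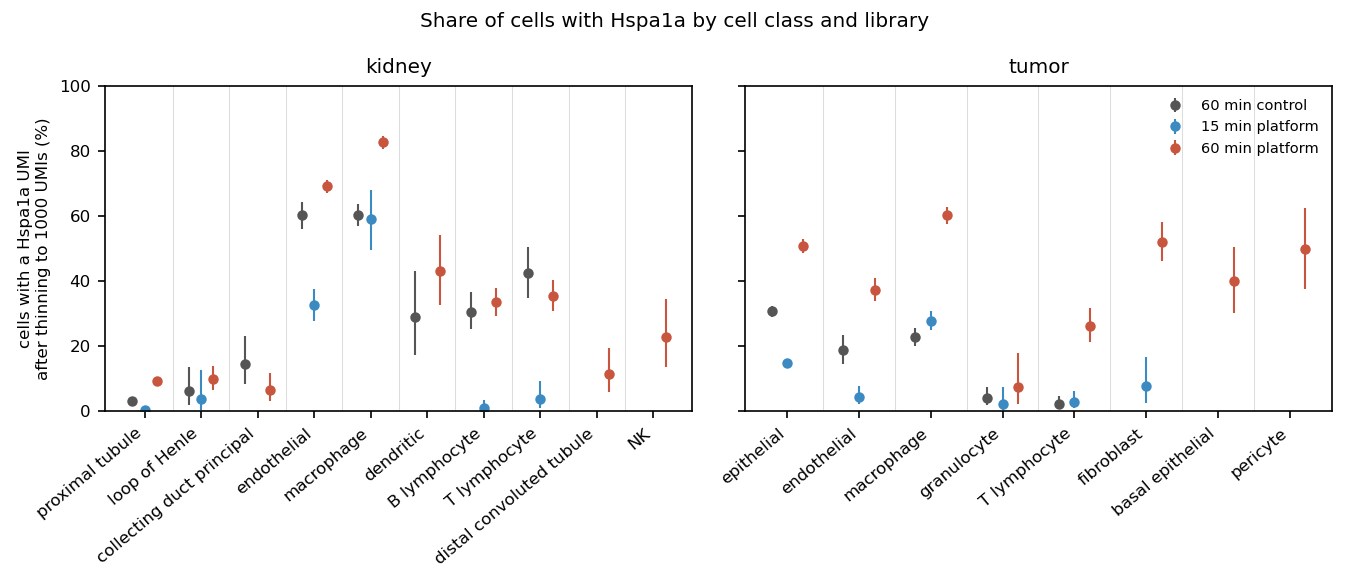
Share of cells with at least 1 Hspa1a UMI (vertical axis, percent) after thinning each cell to 1000 UMIs, by cell class in kidney (left) and tumor (right), 1 point per library with its exact 95% binomial interval. Kidney B and T lymphocytes lie at 0.948 and 3.70% in the 15 min interval and between 30.6 and 42.5% in both others, and kidney macrophages of the control and the 15 min interval overlap.

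The spread of Hspa1a within a class differed between classes. In control B lymphocytes of the kidney the 10% of cells with the most Hspa1a held 66.8% of its UMIs after thinning, and in 60 min tumor T lymphocytes they held 74.1%. For Hspa8 in the same B lymphocytes the share was 41.1%. In 60 min kidney macrophages the top cells held 29.3% of Hspa1a and 29.7% of Hspa8, and in 60 min kidney endothelial cells 36.9 and 35.7%, so there the genes were spread alike. The share was higher for Hspa1a in 23 of the 24 class and library sums with both values, with UMI numbers that were not matched between the genes. In the proximal tubule its share of 100% was fixed by low counts. There 88 control and 262 60 min interval cells held a Hspa1a UMI, fewer than the 297 and 279 cells of the top 10%. Cells with Hspa1a more often had Hspa1b as well. In control kidney macrophages, 67.7% of the 470 cells with Hspa1a and 9.71% of the 309 without it had a Hspa1b UMI. For Dnajb1 these were 44.5 and 5.83%, and for Hspa5 they were 54.9 and 43.4%. In 60 min tumor T lymphocytes Hspa1b was found in 69.3% of the 75 cells with Hspa1a and 7.14% of the 210 without, and Dnajb1 in 48.0 and 16.2%. Hspa5 was found in 38.7 and 38.6% of them. The cells of a class come from 1 library, so these shares describe that library.

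The partners of HSP70, Dnajb1, Hsph1 and Dnaja1, were all past 2-fold lower in the 15 min interval than in the control in kidney endothelial cells, macrophages and lymphocytes. Dnajb1, the HSP40 best known as an HSF1 target, stood in kidney endothelial cells at 399 in the 60 min control, 58.6 in the 15 min interval and 410.1 in the 60 min interval. In kidney macrophages Dnajb1 stood at 703, 169 and 1335. Hsph1, the nucleotide exchange factor, stood in kidney macrophages at 334 in the 60 min control, 15.7 in the 15 min interval and 644 in the 60 min interval, the 15 min value from 10 UMIs and 21.3-fold below the control (ratio 0.0225 to 0.0866). In kidney endothelial cells Hsph1 was 15.0-fold lower in the 15 min interval than in the control, and in proximal tubule cells it was 1.24-fold lower, short of 2-fold. Dnaja1 stood in kidney macrophages at 1358, 304 and 2270.4, 4.46-fold below the control after 15 min, where Dnajb1 was 4.15-fold below it. Dnaja1 stood in kidney T lymphocytes at 1178, 459 and 1264 and in proximal tubule cells at 653, 516 and 633. Its 15 min level was thus past 2-fold below the control in macrophages and lymphocytes and not in the tubule.

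In the tumor no partner was past 2-fold from the control after 15 min in a class where it passed the count filter. Dnajb1 of tumor epithelial cells stood at 145 in the 60 min control, 77.2 in the 15 min interval and 190.3 in the 60 min interval, and that of macrophages at 137, 170.3 and 517. Hsph1 of tumor macrophages stood at 64.5, 32.5 and 242 and that of T lymphocytes at 30.4, 51.4 and 199, the latter from 63, 68 and 336 UMIs. Both genes were past 2-fold above the control in the 60 min interval in macrophages and T lymphocytes. Dnaja1 passed 2-fold above the control in macrophages alone, at 466, 341 and 993.

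Hsp90aa1, which finishes the folding of kinases and receptors, went with the partners. In kidney endothelial cells it stood at 2579 in the 60 min control, 379 in the 15 min interval and 2290.1 in the 60 min interval, 6.81-fold below the control after 15 min. In kidney B lymphocytes Hsp90aa1 stood at 2162, 441 and 2202 and in proximal tubule cells at 589, 517 and 893. Tumor macrophages had 1008, 619 and 2388 and tumor epithelial cells 1042, 601 and 1562 of Hsp90aa1. Tumor T lymphocytes had 681, 547 and 1982. The gene was therefore more than 2-fold above the control in the 60 min interval in tumor macrophages and T lymphocytes and not in tumor epithelium.

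The HSP70 of unstressed cells, Hspa8, differed least among the cytosolic HSP70 genes. In kidney proximal tubule cells it stood at 2062 in the 60 min control, 1824 in the 15 min interval and 1851 in the 60 min interval. Kidney endothelial cells were the one class in which Hspa8 passed 2-fold between the 15 min interval and the control, with 2322, 925 and 2004. Tumor epithelial cells had 2182, 1883 and 2595 and tumor T lymphocytes 1600.4, 1850.4 and 3050.4, with no tumor class past 2-fold against the control. Hspa5, which the unfolded protein response of the endoplasmic reticulum raises, went the other way in the kidney tubule. Its proximal tubule levels were 214 in the 60 min control, 342 in the 15 min interval and 313 in the 60 min interval, a difference of 0.68 on the log2 scale between the 15 min interval and the control. In kidney macrophages Hspa5 stood at 1193, 591 and 1865, just past 2-fold below the control after 15 min. In the 4 tumor classes other than granulocytes, Hspa5 in the 60 min interval differed from the control by -0.02 to 0.01 on the log2 scale.

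Among the classes compared, Hspb1 was highest in the endothelium of the kidney and in the epithelium and endothelium of the tumor. In kidney endothelial cells it stood at 4924 in the 60 min control, 1450.4 in the 15 min interval and 5966 in the 60 min interval, so the 15 min interval was 3.39-fold below the control (ratio 0.281 to 0.309). Kidney macrophages had 188, 4.70 and 242 of Hspb1, from 1006, 3 and 2038 UMIs. With 3 UMIs the ratio of the 15 min interval to the control had an interval of 0.00515 to 0.0733. In kidney T lymphocytes of the 15 min interval no Hspb1 UMI was found, against 14 in the control (ratio 0 to 0.458). Tumor epithelial cells had 1593 in the 60 min control, 854 in the 15 min interval and 2371 in the 60 min interval and tumor endothelial cells 689, 483 and 1701. Tumor pericytes had 789 in the control and 500 in the 15 min interval, from 15 and 28 cells, under the cell minimum. In the 60 min interval 33.8% of pericytes and 52.6% of endothelial cells had a Hspb1 UMI after thinning.

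Kidney dendritic cells had 7.05 CPM of Hspb1 in the control, from 4 UMIs, and 115 in the 60 min interval, from 116 (ratio 6.22 to 61.1). The summed endothelial markers in these cells were 8.81 and 24.9 CPM, with 4 and 5 of the 6 markers detected and Kdr at 0 in both. Their part in the result was not tested. Dendritic cells numbered 52 in the control and 89 in the 60 min interval.

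**Figure D3:**
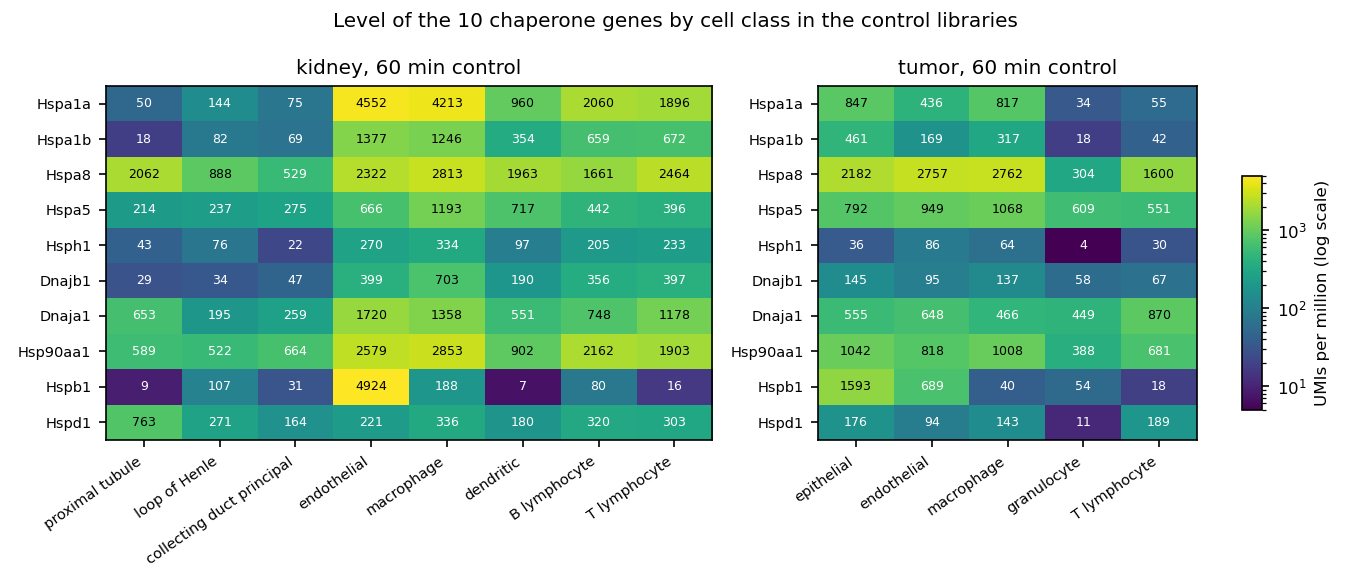
Level of the 10 genes (rows) by cell class (columns) in the 60 min control libraries of kidney (left) and tumor (right), in CPM, printed in each field and coloured on a log scale. Hspb1 is highest in kidney endothelial cells at 4924 and in tumor epithelial cells at 1593, and Hspd1 is highest in the proximal tubule at 763.

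Hspd1, the mitochondrial chaperonin, differed from the rest in where it was found. It was highest in the proximal tubule in all 3 kidney libraries, at 763 in the 60 min control, 701 in the 15 min interval and 779 in the 60 min interval, differences of -0.12 and 0.03 from the control on the log2 scale. In kidney macrophages Hspd1 stood at 336, 111 and 444 and in B lymphocytes at 319.9, 133 and 429, past 2-fold below the control after 15 min in both. In tumor epithelial cells it stood at 176, 186 and 223, and no tumor class in which it passed the count filter was past 2-fold against the control.

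Counted over the kidney classes, the members that passed the count filter and were past 2-fold in the 15 min interval were lower, mostly in endothelial and immune cells. Past 2-fold below the control were 8 of the 10 members in endothelial cells, where 2.47% of 5219 genes were. The count was 9 of 10 in macrophages against 4.52% of all genes tested, 7 of 10 in B lymphocytes against 2.32%, and 7 of 10 in T lymphocytes against 4.09%. It was 1 of 10 in the proximal tubule against 0.37%, and 0 of 10 in the loop of Henle against 2.77%. A gene was counted if its mean over the 2 libraries was at least 20 CPM and their UMIs summed to at least 100, which 10, 10, 9, 9, 8 and 5 members did in the order given. The median log2 difference of the members that passed was -1.96 in endothelial cells and -0.33 in the proximal tubule, against 0.13 and -0.25 over all genes tested. No member was past 2-fold higher in any of these classes, where 0.123% in the proximal tubule, 0.416% in the loop of Henle, 0.383% in endothelial cells, 1.56% in macrophages, 1.3% in B lymphocytes and 0.341% in T lymphocytes of all genes tested were.

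Between the 60 min interval and the control of the kidney, few members were past 2-fold. There were 3 of 10 higher in the proximal tubule, where 1.21% of all genes tested were, namely Hspa1a, Hspa1b and Dnajb1, and 3 of 10 in dendritic cells (2.3%), namely Hsph1, Dnajb1 and Hspb1. The count was 0 of 10 in endothelial cells (0.444%), macrophages (1.43%), B lymphocytes (0.934%), T lymphocytes (0.857%), loop of Henle (1.21%) and collecting duct principal cells (0.37%). The count filter was passed by 5 members in collecting duct principal cells, 7 in the loop of Henle and 9 in the proximal tubule and in T lymphocytes. In the other classes all 10 passed it. No member was past 2-fold lower, where 0.0233% in the proximal tubule, 0.66% in the loop of Henle, 0.222% in collecting duct principal cells, 0.477% in endothelial cells, 0.208% in macrophages, 1.45% in dendritic cells, 0.498% in B lymphocytes and 0.2% in T lymphocytes of all genes tested were. In macrophages all 10 were above the control, with a median of 0.67 on the log2 scale. Between the intervals of the device, the later had 4 of 10 members past 2-fold higher in the proximal tubule (1.85% of all genes tested), 2 in the loop of Henle (2.42%), 7 in endothelial cells (1.44%), 10 in macrophages (5.9%), 9 in B lymphocytes (4.04%) and 7 in T lymphocytes (6.77%). None was past 2-fold lower there, where 0.168% in the proximal tubule, 0.231% in the loop of Henle, 0.288% in endothelial cells, 2.75% in macrophages, 1.56% in B lymphocytes and 0.562% in T lymphocytes of all genes tested were. Between the intervals 7 members passed the filter in the loop of Henle, 9 in the proximal tubule and in T lymphocytes, and 10 elsewhere. Over the 8 kidney classes, 6 of 70 gene and class pairs were past 2-fold higher in the 60 min interval than in the control. With an estimate of free RNA taken away, 12 pairs were. That estimate was the UMIs per cell of the gene in the class of the same library that held the fewest. No share of all genes is given under that setting, so the 12 pairs are not read as a result about the members. The 3 comparisons share libraries and are not independent.

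In the tumor more members were past 2-fold from the control in the 60 min than in the 15 min interval. After 15 min, 2 of the 10 members were past 2-fold lower in epithelial cells, where 1.21% of all genes tested were, 3 in endothelial cells (1.17%), 2 in macrophages (5.27%), 1 in T lymphocytes (2.98%) and 0 in granulocytes (14.3%). None was past 2-fold higher, where 0.189% in epithelial cells, 0.404% in endothelial cells, 2.9% in macrophages, 4.9% in granulocytes and 2.85% in T lymphocytes of all genes tested were. In the 60 min interval, 7 of 10 were past 2-fold higher than the control in macrophages (1.7%), 6 in T lymphocytes (4.15%), 4 in endothelial cells (0.576%), 2 in epithelial cells (0.378%) and 0 in granulocytes (3.3%). None was past 2-fold lower, where 0.299% in epithelial cells, 0.524% in endothelial cells, 1.56% in macrophages, 4.41% in granulocytes and 1.86% in T lymphocytes of all genes tested were. In granulocytes 4 members passed the filter in each comparison, also between the intervals, and in T lymphocytes after 15 min 9 did.

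Between the intervals of the device, the later tumor interval had 5 of 10 members past 2-fold higher in epithelial cells (0.647%), 6 in endothelial cells (2.08%), 7 in macrophages (2.87%), 7 in T lymphocytes (4.27%) and 1, Hspa5, in granulocytes (12.3%). Fibroblasts, compared between the intervals alone, had 7 of 10 (6.21%). None was past 2-fold lower, where 0.247% in epithelial cells, 5.15% in fibroblasts, 0.875% in endothelial cells, 0.771% in macrophages, 5.81% in granulocytes and 1.71% in T lymphocytes of all genes tested were.

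**Figure D4:**
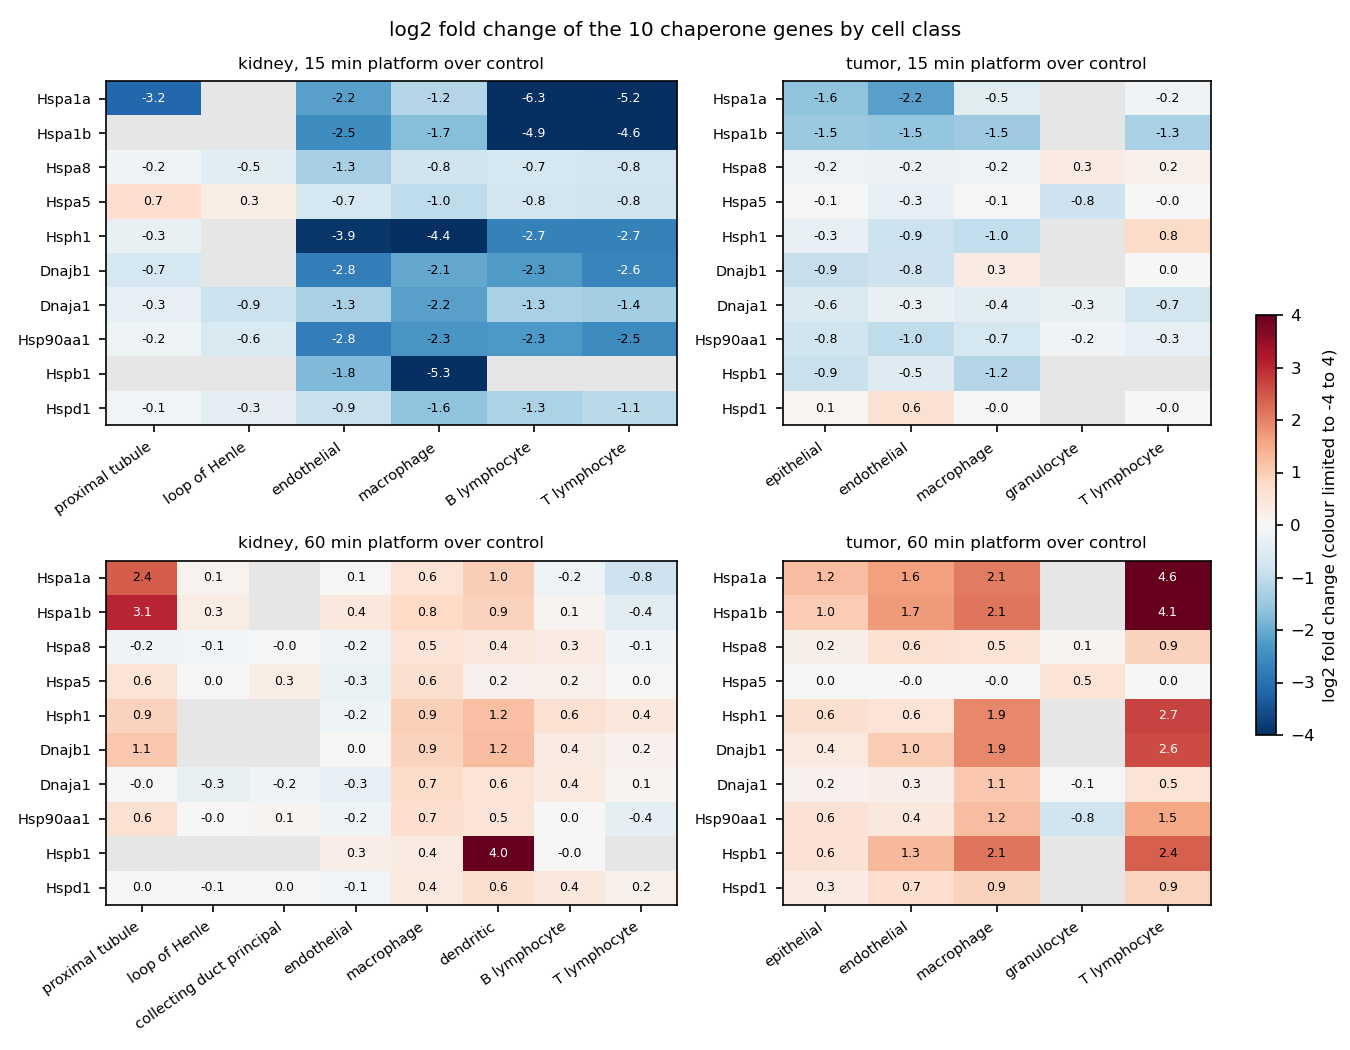
log2 fold change of the 10 genes (rows) by cell class (columns) over the 60 min control, for the 15 min (top) and 60 min interval (bottom) in kidney (left) and tumor (right). Blue is lower and red higher than the control, colour stops at 4 in either direction, and grey fields had too few counts. Blue fills the 4 kidney columns from endothelial cells to T lymphocytes at 15 min, apart from grey Hspb1 fields in B and T lymphocytes. The highest value is Hspa1a in tumor T lymphocytes at 4.60, 1 of 3 red fields past the colour stop.

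**Figure D5:**
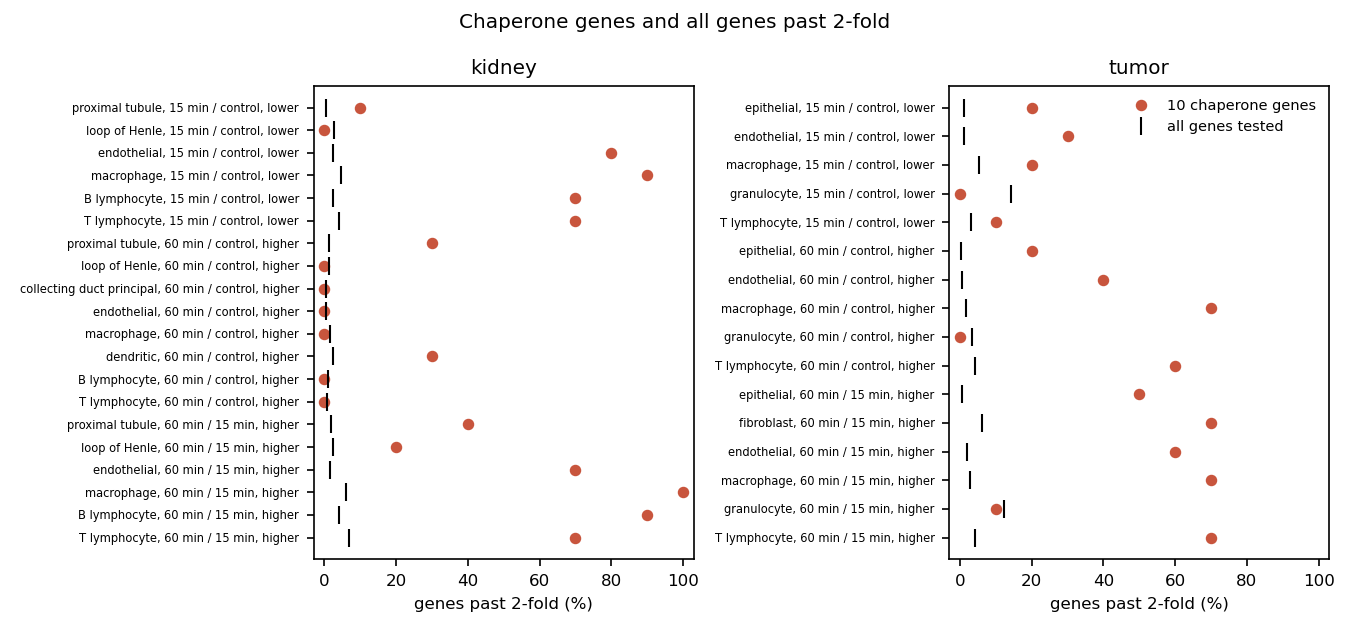
Percent of the 10 chaperone genes (red points) and of all genes tested (black bars) past 2-fold in the direction named, for each class and comparison in kidney (left) and tumor (right). In kidney macrophages 9 of 10 were lower at 15 min than in the control beside 4.52% of all genes, and in tumor granulocytes no member was beside 14.3%. Red points are percents of all 10 members, also where fewer passed the count filter, as in tumor granulocytes, where 4 did.

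Taken as a share of all UMIs, the 10 genes made up 1.90% of the transcripts of control kidney endothelial cells, 0.532% in the 15 min and 1.96% in the 60 min interval. In kidney macrophages the shares were 1.52%, 0.562% and 2.37%. Proximal tubule cells stayed between 0.396 and 0.506%. Tumor epithelial cells had 0.783%, 0.520% and 1.14%, tumor macrophages 0.682%, 0.541% and 1.45%, and granulocytes 0.193%, 0.177% and 0.210%. Over whole libraries, Hspa1a stood at 1302, 55.7 and 2411 CPM in the kidney and 765, 311 and 2272 in the tumor. With equal weight for each class present in all 3 libraries the kidney values were 2152, 497 and 2363. Proximal tubule cells were 3087 of the 5886 kept cells in the control, 7196 of 8390 in the 15 min and 2952 of 9936 in the 60 min interval.

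The genes most like Hspa1a over the 24 class and library sums of the kidney, by Pearson correlation of log2(CPM + 1), were Hspa1b (0.984), Jun (0.888) and Dnajb1 (0.880). Over the 19 sums of the tumor they were Hspa1b (0.955), Dnajb1 (0.902) and Hsp90aa1 (0.836). Hsp90aa1 was closest to Hsp90ab1, Hsph1 and Dnajb1 in the kidney (0.894 each), and Dnaja1 to the ubiquitin gene Ubb (0.966). Hspb1 was closest to the endothelial genes Tm4sf1, Fabp4 and Ptprb in the kidney (0.861, 0.851 and 0.835). In the tumor it was closest to Sox4, Cyr61 and Crip2 (0.909, 0.896 and 0.894). Hspd1 had a correlation of -0.04 with Hspa1a in the kidney, where its closest genes were Odc1 (0.904) and its partner Hspe1 (0.876). In the tumor its correlation was 0.595 with Hspa1a and 0.897 with Hspa8. Its closest genes there were Rps4x, Rpl10a and Rpl22l1 (0.961, 0.958 and 0.957). The sums share libraries, depth and cell composition, and these values describe likeness only.

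Other genes of protein folding were counted from lists over the same class and gene pairs that passed the filter. Between the 15 min interval and the control of the kidney, 32 of 51 pairs of the members were past 2-fold lower. Of the list of HSF1 targets and stress-inducible chaperones 13 of 57 were, among them Hspe1, the co-chaperonin of Hspd1, with a median of -1.07 on the log2 scale over 6 classes and past 2-fold in 4. Hsp90ab1, the HSP90 of unstressed cells, had a median of -0.84 over 6 classes and passed in none. Of the HSP70 cycle partners 1 of 41 pairs was lower and of the genes of the unfolded protein response of the endoplasmic reticulum 4 of 74. Mitochondrial chaperones and proteases had 0 of 26, and the cytosolic chaperonin TRiC with prefoldin 0 of 50. Immediate early genes, transcription factors switched on within minutes of a stimulus, had 18 of 35 lower and 2 higher, among them Jun with a median of -1.50. Of all genes tested, 0.37% (proximal tubule) to 4.52% (macrophages) were past 2-fold lower in these classes. The shares past 2-fold higher ran from 0.123% (proximal tubule) to 1.56% (macrophages).

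Between the 60 min interval and the control of the tumor, 19 of 44 pairs of the members were past 2-fold higher, against 2 of 51 for the HSF1 list, 0 of 36 for the HSP70 cycle partners, 0 of 67 for the unfolded protein response, 0 of 26 for the mitochondrial list and 0 of 41 for TRiC and prefoldin. Immediate early genes had 14 of 39 higher, with medians of 1.75 for Egr1 and 1.47 for Atf3. After 15 min in the tumor, 18 of 39 immediate early pairs were higher and 1 lower, with a median of 2.29 for Fos, while 8 of 43 member pairs were lower and none higher. Of all genes tested, 0.378% (epithelial cells) to 4.15% (T lymphocytes) were past 2-fold higher in the 60 min interval. After 15 min, 0.189% (epithelial cells) to 4.9% (granulocytes) were higher and 1.17% (endothelial cells) to 14.3% (granulocytes) lower.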

How the data were processed

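Single cells of each of the 6 libraries were barcoded with 10x Genomics 3′ chemistry, and the deposited counts are UMIs per gene and cell, made by the authors with Cell Ranger 3.1.0 on mm10 and brought to equal depth within each tissue by its aggregation step. Cells were kept with 200 to 3000 genes (kidney) or 200 to 4000 (tumor) and at most 50% or 25% mitochondrial UMIs, the limits of the study's methods. No doublet caller was run, so doublets were limited by the upper gene limit alone.

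A cell entered a class with UMIs of at least 3 of 6 markers and at least 2 more than for any other class, and classes of at least 50 cells were compared. UMIs were summed per class and library and divided by the class total (CPM). With 1 library per condition no test was run, and a gene with a mean of at least 20 CPM and 100 UMIs in all counted when past 2-fold. A floor of 3 counts stood for 0 in folds. Free RNA was estimated per gene as the UMIs per cell in the class of the same library that held the fewest, and taken away in 1 alternative. The fold script was checked on simulated counts. Ratio and level intervals were exact Poisson and share intervals exact binomial, at 95%.

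Every member was named. Of each other list at most 4 genes per tissue were, those with the highest and lowest median change, and for likeness the 3 closest genes. The members and lists were chosen with earlier results of these data known. Start-site windows were taken from RefSeq (GRCm38) and gene positions from GENCODE on GRCm38. Python 3.11.15, numpy 2.4.6, scipy 1.17.1, pandas 2.3.3 and matplotlib 3.10.9 were used. Alternatives changed the cell limits, the gate, the denominator, the weight of cells, depth, free RNA and the fold, and 1 chosen after seeing the data left out shared barcodes.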

Additional observations from a re-analysis of the deposited data

Results flagged for a closer look

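Some differences ran in opposite directions in kidney and tumor for the same class and comparison, and with 1 library per condition the difference between the tissues was not tested. Hspd1 in endothelial cells of the 15 min interval differed from the control by -0.88 on the log2 scale in kidney and by 0.59 in tumor. Hsph1 in T lymphocytes of the 15 min interval differed by -2.72 in kidney and by 0.76 in tumor. Hspa1a in T lymphocytes of the 60 min interval differed by -0.84 in kidney and by 4.60 in tumor.

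Cells that met no marker gate entered no comparison, yet some of their chaperone levels in the 60 min interval were past 2-fold above those of such cells in the control. Their Hsph1 level was 270.4 CPM in the kidney, against 133 in the control. In the tumor Hspa1a stood at 1847 CPM against 553, Hspa1b at 827 against 277, Hsph1 at 126 against 41.1 and Dnajb1 at 283 against 97.7. These values were picked for being past 2-fold, and no share of all genes is given for such cells.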

How the results depend on the processing

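With 1 library per condition, no library could be left out of a group. No paired analysis was possible because each group held 1 library and no result came from a test. Of 2798 values of a member in a class under another setting, 2564 kept their direction and their side of 2-fold, 75 came past 2-fold, 37 fell short of it, 117 that were under 2-fold changed sign, and 5 that were past 2-fold turned round. Hspb1 in the proximal tubule, 15 min against control, became 3.13 on the log2 scale with free RNA taken away. Hspb1 in the loop of Henle, 60 against 15 min, became -0.088 as a mean over cells, -0.75 after thinning and -0.75 with free RNA taken away, and Hspa1a in tumor granulocytes, 15 min against control, became -0.93 after thinning. For these the cause was not tested. Counts of member and class pairs past 2-fold moved as follows. In the kidney at 15 min against control, pairs higher went from 0 to 1 after thinning, 1 with free RNA taken away and 1 at 1.5-fold. At 60 min against control, kidney pairs higher went from 6 to 12 with free RNA taken away and 18 at 1.5-fold, and pairs lower from 0 to 1 under each of these. In the tumor at 15 min against control, pairs higher went from 0 to 1 after thinning and 2 at 1.5-fold, and pairs lower from 8 to 17 at 1.5-fold. At 60 min against control, tumor pairs lower went from 0 to 1 as a mean over cells and 1 at 1.5-fold, and at 60 against 15 min from 0 to 1 with no upper cell limits and 1 at 1.5-fold. A lower fold admits more pairs by construction, and for the other settings the cause was not tested. No share of all genes is given beside these counts, so they describe the settings and not the members. The median over members and classes kept its sign under all 8 alternatives run on it, and ran from -2.23 to -1.46 for the kidney at 15 min against control and from 0.61 to 0.97 for the tumor at 60 min against control. Leaving out shared barcodes, an alternative chosen after seeing the data, moved no count by more than 1.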
